A study of Mus musculus with 4 samples.

Results

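Dusp1, Dusp4, Dusp5 and Dusp6 encode dual-specificity phosphatases that switch off mitogen-activated protein (MAP) kinases, and their mRNA levels were read in brain RNA of tau+/+ and tau-/- mice after a seizure-provoking drug. They were taken by symbol as 4 of the 230 genes in the deposited table, and all 4 were found. Choice by symbol uses no measured value, but the family was picked with earlier results of these data known. The table itself was selected by the study on these same libraries. It holds genes that changed with PTZ in tau+/+ and had no response, or a milder one, in tau-/-. RNA was sequenced from 4 groups of C57Bl/6 mice 6 weeks of age, with 1 library per group: tau+/+ vehicle, tau+/+ PTZ, tau-/- vehicle and tau-/- PTZ. PTZ is pentylenetetrazole, a blocker of inhibitory GABA receptors, which was given as an intraperitoneal injection at 50 mg/kg, and brains were taken 1 h later. The labels call the vehicle groups sham. The tau-/- mice carry a green fluorescent protein cDNA knocked into the first exon of Mapt, so a reporter gene comes with the loss of tau in both tau-/- groups and in neither tau+/+ group. The animals behind the PTZ libraries had been chosen to be alike in seizure severity. How many mice went into a library is not given in the sources used here. The labels name brain as the source but also speak of primary neurons. Choroid plexus transcripts such as Ttr, at 1504 FPKM in tau+/+ vehicle, were in the table. In contrast, 0 of 6 neuron markers and 0 of 4 astrocyte markers were among its 230 genes, so neurons and astrocytes could not be checked against their markers. Mapt itself was not analysed here.

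MAP kinases such as ERK, p38 and JNK are activated when both a threonine and a tyrosine in their activation loop are phosphorylated, and these phosphatases remove both phosphates. Several of their genes are themselves turned on by MAP kinase and calcium signaling, so that strong synaptic activity is followed by a brake on the same kinases. Dusp1, an immediate early gene, encodes a nuclear enzyme that acts on p38 and JNK as well as ERK. Dusp4 encodes a nuclear enzyme of broad preference, Dusp5 a nuclear enzyme selective for ERK that also holds it in the nucleus, and Dusp6 a cytoplasmic enzyme selective for ERK that carries a nuclear export signal. In brain, seizures and other strong stimuli are known to induce this family.

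The genes lie on 4 chromosomes of GRCm38, and each has a main transcript of 3 or 4 exons in GENCODE M21. The main Dusp1 transcript runs on the minus strand of chromosome 17 from 26505590 to 26508519 and has 4 exons. Dusp4 lies on the plus strand of chromosome 8 from 34807297 to 34819894, with 4 exons. Dusp5 lies on the plus strand of chromosome 19 from 53529109 to 53542431, also with 4 exons. The main Dusp6 transcript runs on the plus strand of chromosome 10 from 99263231 to 99267488 and has 3 exons. The median over all protein-coding genes was 7 exons and over the 209 listed genes matched by symbol 4 exons. The main transcripts spanned 2.93 kb for Dusp1 and 4.26 kb for Dusp6, below the listed genes' median of 9.82 kb. They spanned 12.6 kb for Dusp4 and 13.3 kb for Dusp5, above it. The whole Dusp1 gene record reaches further than its main transcript, to 26562128. The pentamer ATTTA, which is part of AU-rich elements found in short-lived mRNAs, occurred 4 times in the 690 bases of the Dusp1 3′ untranslated region, or 5.80 times per kb. It occurred 2 times in Dusp4, 1 time in Dusp5 and 1 time in Dusp6, or 1.80, 0.902 and 0.841 times per kb, against a median of 1.68 per kb over 204 listed genes and 1.33 per kb over all protein-coding genes with at least 100 bases there. Among the 4 main transcripts, that of Dusp1 thus combined the shortest span with the densest ATTTA.

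Promoter sequence is shown because activity-regulated genes are often read through short sites close to their start. RefSeq promoter windows on GRCm38.p6, from 250 bases before to 50 bases after the start, were matched for 3 of the 4 genes, Dusp1, Dusp5 and Dusp6. The stretches printed here are 5′ to 3′ on the gene's own strand and end before both the RefSeq and the GENCODE start. The Dusp1 stretch is chr17:26508520-26508722 on the minus strand, the Dusp5 stretch chr19:53528895-53529108 on the plus strand, and the Dusp6 stretch chr10:99262981-99263230 on the plus strand. Capitals mark the cyclic AMP response element (CRE, TGACGTCA), its half-site (TGACG) and the CArG box of serum response factor (CC, 6 bases of A or T, then GG).
Dusp1: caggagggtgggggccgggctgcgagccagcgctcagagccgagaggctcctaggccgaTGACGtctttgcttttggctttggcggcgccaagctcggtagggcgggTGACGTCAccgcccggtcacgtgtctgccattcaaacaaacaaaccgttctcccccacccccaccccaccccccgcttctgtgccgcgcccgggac
Dusp5: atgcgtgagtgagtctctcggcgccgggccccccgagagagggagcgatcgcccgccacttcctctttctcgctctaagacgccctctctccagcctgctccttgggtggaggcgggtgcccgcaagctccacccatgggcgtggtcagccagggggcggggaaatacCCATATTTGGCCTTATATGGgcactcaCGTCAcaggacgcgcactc
Dusp6: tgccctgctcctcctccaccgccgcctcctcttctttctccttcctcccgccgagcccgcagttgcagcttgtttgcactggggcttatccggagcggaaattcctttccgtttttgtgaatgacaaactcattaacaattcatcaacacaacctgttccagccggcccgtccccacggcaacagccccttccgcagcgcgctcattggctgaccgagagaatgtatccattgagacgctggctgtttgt

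Both strands of each window were searched, and a full CRE also contains its half-sites. Dusp1 holds a full CRE 143 to 136 bases before its RefSeq start, and 1.79% of the 32851 RefSeq windows hold one, as do 13 of the 158 listed genes with a window. A further half-site lies 191 to 187 bases before the Dusp1 start, and 20.8% of all windows hold at least 1 half-site, as do 46.8% of the listed genes with a window. Dusp5 holds 2 CArG boxes placed end to end, 82 to 73 and 72 to 63 bases before its RefSeq start. At least 1 CArG box is found in 1.63% of all windows and at least 2 in 0.018%. Among the listed genes with a window, 3.16% hold at least 1. Dusp5 also has a CRE half-site 55 to 51 bases before the start. Of the other motifs searched, the E-box CACGTG was found in Dusp1 126 to 121 bases before the start. This E-box is found in 7.15% of all windows and in 16.5% of the listed genes with a window. The AP-1 site TGANTCA (7.81% of windows), the EGR site GCGNGGGCG (5.55%) and the TATA box (TATAAA or TATATA, 17.1%) were found in none of the 3 windows. Among the listed genes with a window, these shares were 5.06%, 15.8% and 22.2%, in the same order. The Dusp6 window held none of the 7 motifs. These are matches of letters in a short window and not measured binding sites.

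**Figure D1:**
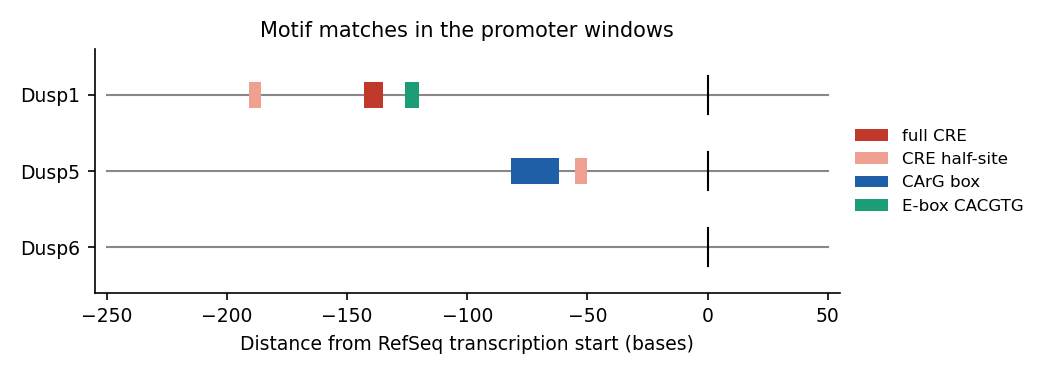
Matches of the motifs found in the RefSeq promoter windows of Dusp1, Dusp5 and Dusp6, by distance in bases from the RefSeq start (vertical tick), with each coloured block 1 match. Dusp1 carries the full CRE, Dusp5 the adjoining CArG boxes, and Dusp6 no match.

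To see how the phosphatases responded to PTZ when tau was present, the tau+/+ libraries were compared first. All 4 were higher after PTZ, by 1.96-fold to 4.62-fold. Dusp1 had 8.70 FPKM with vehicle and 40.2 FPKM with PTZ in tau+/+ mice, and 8.66 and 18.7 FPKM, in the same order, in tau-/- mice. FPKM is the number of sequenced fragments scaled to transcript length and library size, so levels can be compared between genes. Dusp1 was thus high in both PTZ libraries and low in both vehicle libraries, which had a ratio of 0.995. Dusp4 had 6.18 FPKM with vehicle and 12.1 FPKM with PTZ in tau+/+ mice, and 8.74 and 6.28 FPKM in tau-/- mice. It was the least abundant on average, and its tau-/- PTZ value was as low as that of tau+/+ vehicle. Dusp5 had 4.54 FPKM with vehicle and 18.9 FPKM with PTZ in tau+/+ mice, and 13.1 and 10.8 FPKM in tau-/- mice, so that tau+/+ vehicle alone was low. Dusp6 had 19.9 FPKM with vehicle and 57.5 FPKM with PTZ in tau+/+ mice, and 22.5 and 27.4 FPKM in tau-/- mice. It was the most abundant in every library, and tau+/+ PTZ stood apart from the other three.

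**Figure D2:**
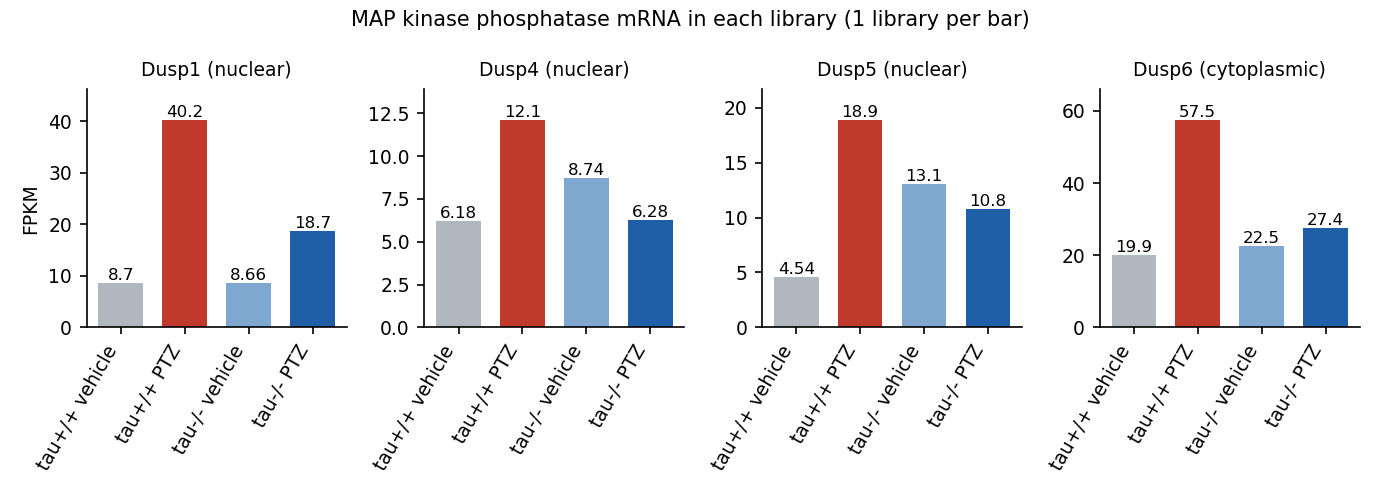
FPKM (vertical axis, from 0, with its own scale in each panel) of the 4 phosphatase genes, 1 bar per library and therefore no error bars. The red tau+/+ PTZ bar is the highest for each gene, Dusp1 follows PTZ in both genotypes, and Dusp5 is low in tau+/+ vehicle only.

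The log2 ratio of tau+/+ PTZ to tau+/+ vehicle was 2.21 for Dusp1, 2.06 for Dusp5, 1.53 for Dusp6 and 0.97 for Dusp4. All 4 of 4 were past 1.5-fold, but every gene in the table had been selected for passing that threshold in these same libraries, in 1 direction or the other, and 76.1% of the 230 did so upward. The count therefore carries no information about the phosphatases. Among the 175 listed genes that were higher after PTZ in tau+/+, Dusp1 ranked 24, Dusp5 29, Dusp6 53 and Dusp4 87. Dusp1 and Dusp5 were thus in the upper part of the list, and Dusp4 was at its median of 0.97. In FPKM, the largest increase was in Dusp6 (37.5 FPKM), followed by Dusp1 (31.5 FPKM), Dusp5 (14.3 FPKM) and Dusp4 (5.92 FPKM). With 1 library per condition, none of these differences has a replicate check, so no test was made. The methods of the study give a lower bound on the aligned read pairs of each library, but the table holds FPKM and no counts, so no counting error was computed for single values.

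The same comparison in tau-/- mice separated the genes. Dusp1, with a log2 ratio of 1.11 between tau-/- PTZ and tau-/- vehicle, was the only phosphatase past 1.5-fold upward, at 2.16-fold. Dusp6 was slightly higher, with a log2 ratio of 0.28. The values of Dusp5 and Dusp4 were lower after PTZ, with log2 ratios of -0.28 and -0.48, both within 1.5-fold. The count of 1 of 4 past 1.5-fold upward stood beside 8.70% of the 230 listed genes, and 18 of the 175 higher after PTZ in tau+/+. Since the study listed genes for a lacking or milder tau-/- response, low counts here were selected for. In order among the 175 genes higher after PTZ in tau+/+, Dusp1 was 10, Dusp6 43, Dusp5 119 and Dusp4 140, whereas their median log2 ratio was -0.06. Dusp1 was thus among the listed genes with the highest tau-/- ratios, and Dusp4 and Dusp5 lay below the median of the list.

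The ratio was smaller in tau-/- than in tau+/+ for all 4 phosphatases, as it was for 172 of the 175 genes that were higher after PTZ in tau+/+, a pattern the study selected for. The gap between the genotypes was 1.10 log2 for Dusp1, 1.24 for Dusp6, 1.45 for Dusp4 and 2.33 for Dusp5. Expressed in FPKM, the change in tau-/- was 31.8% of the tau+/+ increase for Dusp1 and 13.1% for Dusp6. For Dusp5 and Dusp4 it had the opposite sign, at -15.8% and -41.5% of the tau+/+ increase. The median over the 175 genes was -3.60%. Both PTZ libraries lay above both vehicle libraries for Dusp1 and Dusp6, as for 70 of the 175 genes, and tau-/- vehicle lay above tau-/- PTZ for Dusp4 and Dusp5, as for 97 of them. No test of the genotype difference was possible for any gene.

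**Figure D3:**
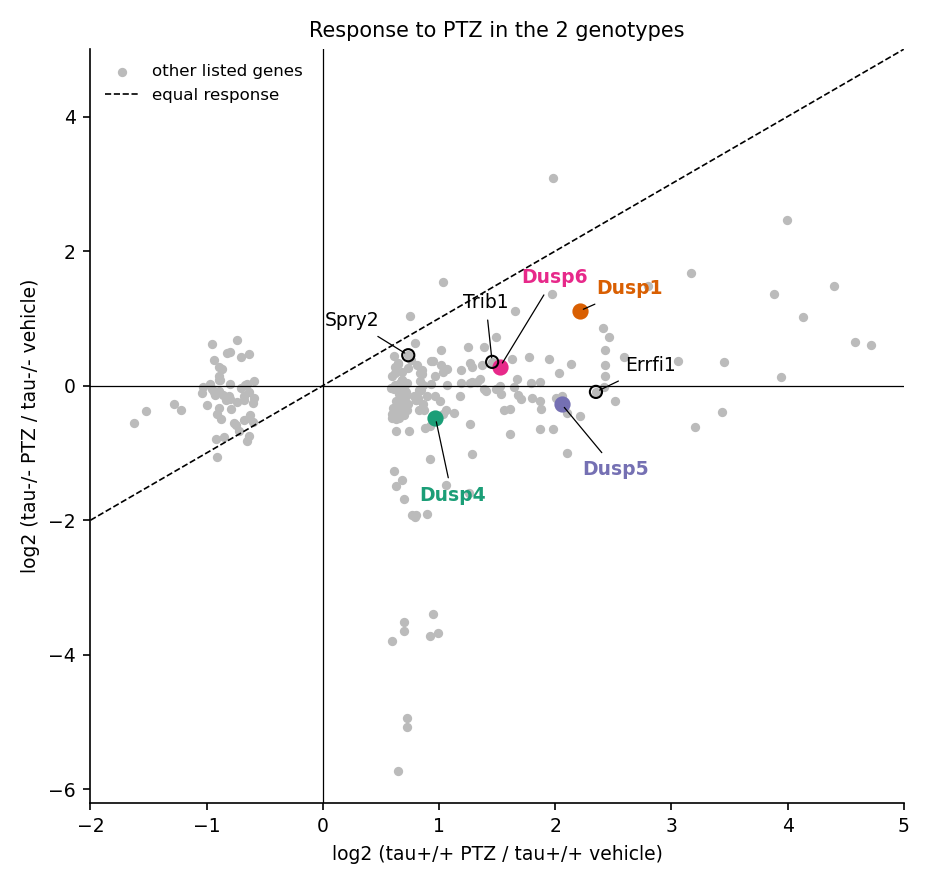
Log2 ratio of PTZ to vehicle in tau+/+ (horizontal axis) and tau-/- (vertical axis), 1 point per listed gene, with the phosphatases in colour and 3 other inhibitors of the pathway circled. Defb11, listed at 0 FPKM in tau-/- PTZ, is left out. All 4 phosphatases lie below the dashed line of equal response, with Dusp1 at 1.11 and Dusp4 at -0.48 on the vertical axis.

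The vehicle libraries were compared to see where each gene started. Without PTZ, the Dusp5 level in tau-/- mice was 2.88 times that in tau+/+ mice, a log2 difference of 1.52. Dusp4 was 1.41-fold higher and Dusp6 1.13-fold higher, and Dusp1 was equal at 0.995-fold. Dusp5 alone was past 1.5-fold upward, 1 of 4, beside 13.9% of the 230 listed genes. Those listed genes were 32, all among the 175 higher after PTZ in tau+/+. The 175 were selected on a ratio that uses tau+/+ vehicle, so their vehicle difference is not independent of the selection. The log2 difference of Dusp5 ranked 2 among all 230, behind E030010A14Rik at 1.64, which had a mean of 1.05 FPKM against 11.8 FPKM for Dusp5. In tau-/- vehicle, Dusp5 already stood at 69.2% of its tau+/+ PTZ level, and Dusp4 at 72.2%, while Dusp6 stood at 39.2% and Dusp1 at 21.5%. The vehicle difference between genotypes thus covered a range of 1.53 log2 over the 4 genes. The vehicle difference and the tau+/+ response share the tau+/+ vehicle library, and the vehicle difference and the tau-/- response share the tau-/- vehicle library, so 1 deviating vehicle library would move both. Against tau+/+ vehicle, tau-/- PTZ was 2.38-fold for Dusp5, 2.15-fold for Dusp1, 1.38-fold for Dusp6 and 1.02-fold for Dusp4, which made 2 of 4 past 1.5-fold upward, beside 14.8% of the 230 listed genes.

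Between the PTZ libraries the genotype difference was similar for all 4 phosphatases. The tau-/- PTZ level was 46.5% of the tau+/+ PTZ level for Dusp1, 47.7% for Dusp6, 51.9% for Dusp4 and 57.2% for Dusp5, which is a range of 0.30 log2. All 4 were lower by over 1.5-fold, beside 60.4% of the 230 listed genes. All 175 listed genes higher after PTZ in tau+/+ were lower in tau-/- PTZ than in tau+/+ PTZ, 139 of them by over 1.5-fold. The study selected for a lacking or milder tau-/- response, so the count carries no information about the phosphatases. When the ratios were centred on the median of all listed genes, 0 of the 4 were lower by over 1.5-fold. Without centring, 2 were lower by over 2-fold, beside 37.0% of the listed genes. The uncentred median log2 ratio was -1.01 for the phosphatases and -0.97 for the 175 genes higher after PTZ in tau+/+. Their ranks among those 175 ran from 64 for Dusp5 to 101 for Dusp1, in the middle of the list. The genes therefore differed among themselves in the vehicle libraries and in the size of their response, and little in how far tau-/- PTZ lay below tau+/+ PTZ.

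**Figure D4:**
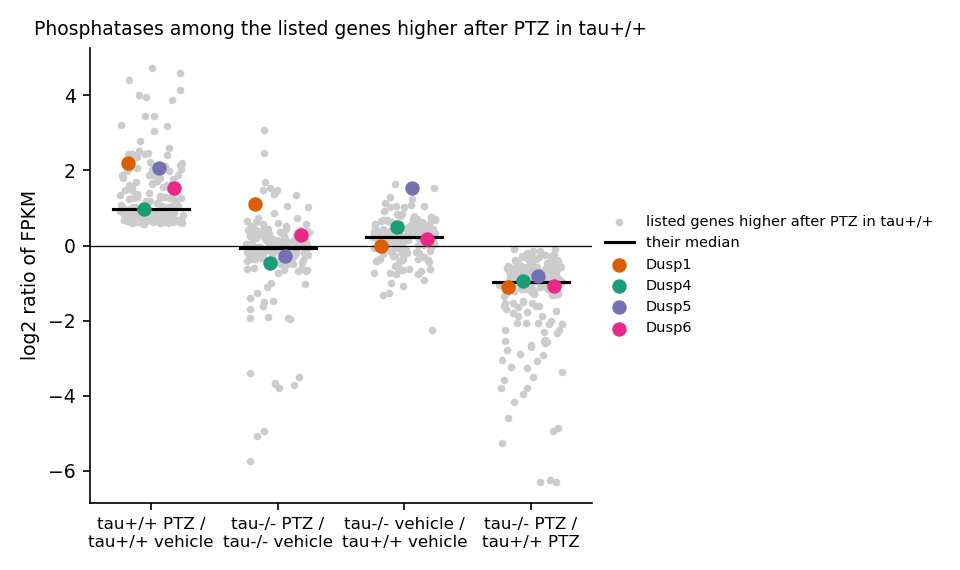
Log2 ratio of FPKM in each of 4 comparisons for the 175 listed genes higher after PTZ in tau+/+ (grey points, spread sideways at random, with Defb11 left out where it is at 0; black line, their median) and the phosphatases (coloured points). The phosphatases spread over 1.53 log2 between the vehicle libraries and over 0.30 log2 between the PTZ libraries.

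To compare the nuclear enzymes with the cytoplasmic one, FPKM of Dusp1, Dusp4 and Dusp5 was added and set against Dusp6 within each library, a ratio that does not depend on the scale of the library. The summed nuclear level was 19.4 FPKM with vehicle and 71.2 FPKM with PTZ in tau+/+ mice, and 30.5 and 35.8 FPKM in tau-/- mice. The nuclear to cytoplasmic ratio was 0.974 with vehicle and 1.24 with PTZ in tau+/+ mice, and 1.35 with vehicle and 1.30 with PTZ in tau-/- mice. The summed mRNA level of the nuclear enzymes was thus close to that of Dusp6 in tau+/+ vehicle, and above it in each of the other libraries. Where the transcripts lie in the cell was not measured. The sum adds 3 genes and Dusp6 is 1, and Dusp6 was above each single nuclear gene in all 4 libraries. The ratio was below 1 in every library without Dusp1 (0.538 to 0.968) or without Dusp5 (0.746 to 0.911). PTZ against vehicle, the nuclear sum was 3.67-fold in tau+/+ and 1.17-fold in tau-/-, and Dusp6 was 2.88-fold and 1.22-fold. The log2 ratio of Dusp6 lay inside the range of the nuclear genes in both genotypes, from 0.97 to 2.21 in tau+/+ and from -0.48 to 1.11 in tau-/-. The location of the enzyme therefore did not divide the responses in these libraries, and with 1 cytoplasmic gene no test of it is possible.

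The genes also differed in the share of their summed FPKM that each made up. Dusp1 made up 22.1% of the FPKM summed over these 4 genes in tau+/+ vehicle and 16.3% in tau-/- vehicle, and 31.3% and 29.6% in the PTZ libraries of the same genotypes. Its share was thus higher with PTZ in both genotypes. The share of Dusp4 was lower with PTZ, with 15.7% and 16.5% in the vehicle libraries against 9.40% and 9.94% in the PTZ libraries, although in tau+/+ its own level was 1.96-fold with PTZ, since a share also depends on the other three genes. Dusp5 held 11.5% with vehicle and 14.7% with PTZ in tau+/+ mice, and 24.7% with vehicle and 17.1% with PTZ in tau-/- mice, so that tau-/- vehicle held the largest share. Dusp6 held 50.7% in tau+/+ vehicle and 42.5% to 44.7% in the other libraries. In tau-/- vehicle, Dusp5 ranked above Dusp1, with a Dusp1 to Dusp5 ratio of 0.663, whereas this ratio was between 1.73 and 2.13 in the other libraries. Summed over the 4 genes, phosphatase FPKM was 39.4 with vehicle and 129 with PTZ in tau+/+ mice, and 53.0 with vehicle and 63.2 with PTZ in tau-/- mice. The sum was 3.27-fold with PTZ in tau+/+ and 1.19-fold in tau-/-.

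**Figure D5:**
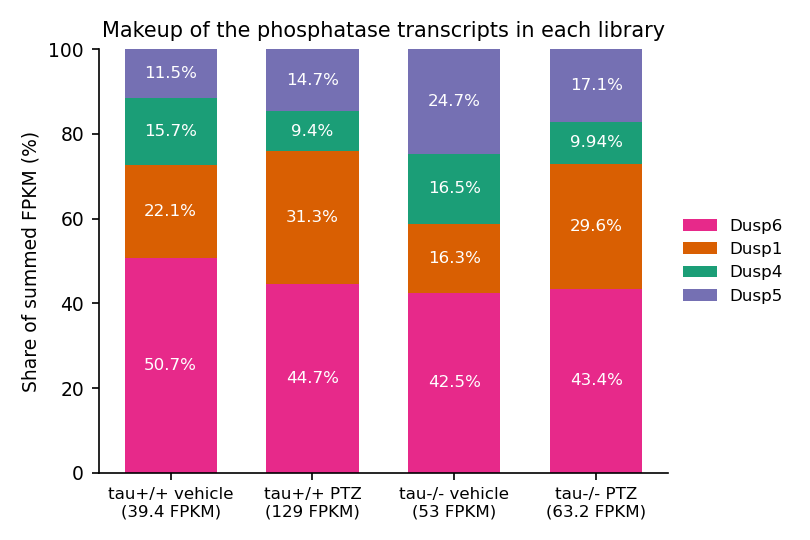
Share of the summed phosphatase FPKM (vertical axis, in percent) held by each gene in each library, with the summed FPKM under the library name. Dusp1 takes a larger share in both PTZ libraries and Dusp5 its largest share, 24.7%, in tau-/- vehicle.

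The listed genes with the most similar pattern were found by the root mean square difference of log2 FPKM over the 4 libraries, each gene centred on its own mean, among 220 other genes with a mean of at least 1 FPKM. With 4 libraries, a close match is a description only. Nearest to Dusp6 was Trib1 (0.0666 log2), a Tribbles pseudokinase that binds upstream MAP kinase kinases, then Fosl2 (0.0971) and Arl5b (0.105). Nearest to Dusp1 were Zfp36 (0.189), an mRNA-decay factor that binds AU-rich elements, Klf4 (0.224) and Sik1 (0.242), and like Dusp1 they were over 1.5-fold higher with PTZ in tau-/- as well, with log2 ratios of 0.86, 1.12 and 0.73. Nearest to Dusp5 were E030010A14Rik (0.131), Sgk1 (0.161), a kinase induced by glucocorticoids, and Gem (0.179), a small GTPase. Sgk1 and Gem also started high in tau-/- vehicle, with vehicle differences of 1.28 and 1.14 log2. Nearest to Dusp4 were Cish (0.0563), an inhibitor of cytokine receptor signaling, Lum (0.0624), a matrix proteoglycan of meningeal fibroblasts, and Ccno (0.0679), with at most 3.08 FPKM in any library. No phosphatase was among the 3 genes nearest to another, and the closest pair was Dusp4 with Dusp6 at 0.352 log2.

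Other brakes on the same pathway were taken from a list of 13 inhibitors of receptor, Ras and ERK signaling, of which 3 were in the table. Errfi1, an inhibitor of the epidermal growth factor receptor, had 11.8 FPKM with vehicle and 60.4 FPKM with PTZ in tau+/+ mice, and 21.3 and 20.0 FPKM in tau-/- mice. Errfi1 was lowest in tau+/+ vehicle, as were Dusp4, Dusp5 and Dusp6, and 100 of the 175 genes higher after PTZ in tau+/+. Its tau-/- libraries were close to each other, with a log2 ratio of -0.09. Trib1 had log2 ratios of 1.46 in tau+/+ and 0.35 in tau-/-. Spry2, which restrains Ras activation below receptor kinases, had 21.6 FPKM with vehicle and 36.0 FPKM with PTZ in tau+/+ mice, and 13.0 and 17.8 FPKM in tau-/- mice, so that both tau-/- libraries were the lowest. In tau-/-, 0 of these 3 were past 1.5-fold with PTZ in either direction, beside 8.70% of the 230 listed genes upward and 16.5% downward. None of 6 further MAP kinase phosphatases looked for (Dusp2, Dusp7, Dusp8, Dusp9, Dusp10 and Dusp16) was in the table, and they were not analysed here.

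Among the other 8 listed genes that the study assigned to MAPK signaling, 1 was past 1.5-fold upward with PTZ in tau-/-, which was Fos with a log2 ratio of 1.01, and 0 were past it downward, where 8.70% of the 230 listed genes were past it upward and 16.5% downward. Their median log2 ratio was 1.40 for tau+/+ and -0.17 for tau-/- mice, against 1.79 and 0.00 for the phosphatases. A list of 17 transcription factors of the MAP kinase response had 12 members in the table, whose median was 2.82 for tau+/+ and 0.28 for tau-/- mice, and 3 of the 12, Fos, Fosb and Atf3, were past 1.5-fold upward in tau-/-. After PTZ these factors lay further below tau+/+ in tau-/- than the phosphatases did, with a median log2 ratio of -2.16 against -1.01. Of 11 feedback inhibitors of other pathways, 6 were in the table, whose median was 1.52 for tau+/+ and -0.04 for tau-/- mice. In tau-/-, 1 of them, Nfkbid, was past 1.5-fold upward and 1, Cish, downward. These counts are to be read against the same 8.70% upward and 16.5% downward. The genes of all these lists were selected by the study on the same libraries and were chosen here with their values known, so their medians describe the table and support no difference between lists.

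The tau-/- PTZ library stood apart in the listed choroid plexus transcripts. Of 10 markers of choroid plexus epithelium looked for, 6 were in the table, and all 6 were lowest there. Their summed level was 1539 FPKM with vehicle and 2553 FPKM with PTZ in tau+/+ mice, and 1132 and 34.4 FPKM in tau-/- mice. A lacking or milder tau-/- response was a condition of being listed, so these 6 are not an unselected sample of the tissue. Of 4 meninges markers looked for, 2 were in the table, Aldh1a2 and Lum. Both were lower in tau-/- PTZ than in tau+/+ PTZ, with log2 ratios of -2.05 for Aldh1a2 and -0.83 for Lum. Aldh1a2 was lowest in tau-/- PTZ, at 1.09 FPKM, whereas Lum was lowest in tau+/+ vehicle. Of the phosphatases, 0 of 4 were lowest in tau-/- PTZ, beside 46 of the 230 listed genes. All 46 were among the 175 genes higher after PTZ in tau+/+, and 4 genes are too few to set the phosphatases apart from these. The part of these tissue differences in the phosphatase values was not tested. In brain RNA a smaller number of expressing cells and less RNA per cell cannot be told apart.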

How the data were processed

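RNA from tau+/+ and tau-/- mouse brain was sequenced with 1 library per condition. Per the labels and the paper's methods, the authors used CASAVA 1.7, TopHat 2.03, Bowtie 2.0.0.6 and Cuffdiff 2.01 on GRCm38/mm10, which gave the deposited FPKM values. The gene annotation is not given in the sources used here. The authors cut the table to 230 genes selected on these libraries, so it holds no background of unselected genes. The deposited Cuffdiff fold changes and p-values were not used.

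Log2 ratios of FPKM without a pseudocount were computed in Python 3.11.15 with numpy 2.4.6 and pandas 2.3.3, and plotted with matplotlib 3.10.9. A gene was counted as past the threshold at 1.5-fold. No test was possible. The functions were tested on simulated data. Named genes are the phosphatases, genes of written lists, and for each phosphatase the 3 genes nearest in pattern. The phosphatases and lists were chosen with earlier results of these data known. Gene models came from GENCODE M21, the main transcript being the best-ranked APPRIS principal one, and promoters from RefSeq. Alternatives were another baseline, pseudocounts, centring, a 2-fold threshold, a minimum of 1 FPKM and sums without 1 nuclear gene.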

Additional observations from a re-analysis of the deposited data

Results flagged for a closer look

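The PTZ to vehicle ratios of Dusp5 and Dusp4 had opposite signs in the 2 genotypes, as they had for 97 of the 175 listed genes that were higher after PTZ in tau+/+. Dusp5 had a log2 ratio of 2.06 in tau+/+ and -0.28 in tau-/-, and Dusp4 of 0.97 in tau+/+ and -0.48 in tau-/-, where both lay within 1.5-fold. With tau+/+ vehicle as the baseline, both tau-/- values were above 0. Neither difference was tested, since each condition has 1 library. Without PTZ, the tau-/- level was 2.88 times the tau+/+ level for Dusp5 and 1.41 times for Dusp4, and the part of the vehicle libraries in this pattern was not tested.

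Genes nearest to Dusp4 and Dusp5 in pattern were opposite in direction too, untested as well, as their choice implies. In tau-/-, the log2 ratios were -0.60 for Cish, -0.37 for Lum, -0.42 for Ccno, -0.64 for E030010A14Rik, -0.35 for Sgk1 and -0.35 for Gem, each against a positive ratio in tau+/+. Errfi1 had a log2 ratio of -0.093 in tau-/- against 2.35 in tau+/+.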

How the results depend on the processing

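Of 122 recomputed values, 67 stayed within 0.1 log2, or within 1.5 times for a count, and the others moved. With tau+/+ vehicle as baseline of tau-/- PTZ, the sign of the tau-/- response turned for Dusp4 (0.024) and Dusp5 (1.25), the median of the 4 phosphatases was 0.78 in place of 0.00, and 2 in place of 1 were past 1.5-fold. With a pseudocount of 1 FPKM, the tau+/+ median was 1.66 in place of 1.79, and the nuclear to cytoplasmic ratio in tau+/+ vehicle was 1.07 in place of 0.974, so that tau+/+ vehicle still had the lowest ratio. Centred on the median of all listed genes (-0.10 for the tau-/- response, 0.11 between vehicle libraries and -0.78 between PTZ libraries), the phosphatase median was 0.11, 0.23 and -0.23. Centred outside choroid plexus and meninges markers, it was 0.21 between vehicle libraries and -0.25 between PTZ libraries. Under either centring 0 of the 4 were lower by over 1.5-fold between PTZ libraries, and the cause was not tested. The centre itself comes from selected genes, 175 of the 230 being higher after PTZ in tau+/+. At 2-fold, 2 of 4 were lower there, beside 37.0% of all listed genes.

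In tau+/+ vehicle, tau+/+ PTZ, tau-/- vehicle and tau-/- PTZ, the nuclear to cytoplasmic ratio was 0.538, 0.539, 0.968 and 0.623 without Dusp1, 0.664, 1.03, 0.965 and 1.08 without Dusp4, and 0.746, 0.911, 0.773 and 0.911 without Dusp5. Without Dusp5, tau-/- vehicle was thus close to tau+/+ vehicle, and without Dusp1 the libraries of tau+/+ did not differ. No paired analysis was possible because each condition has 1 library. Precision is limited by the lack of replicates, and the counts behind each FPKM are not known.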
